A study of Mus musculus with 24 samples.

Results

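Anp32a, Anp32b and Anp32e encode the acidic leucine-rich nuclear phosphoproteins ANP32A, ANP32B and ANP32E of the mouse. Their messenger RNAs were followed in the epididymal fat pad, a white adipose depot, on Agilent 2-colour expression arrays. All probes whose accession maps to one of the 3 genes were taken: 6 of the 55681 probes of the array, 2 for each gene, and 3 of the 20660 genes that the array's probes name. The genes lie on chromosome 9 (Anp32a), chromosome 4 (Anp32b) and chromosome 3 (Anp32e) in the RefSeq table. The family was singled out because a probe of Anp32a stood first by p among all probes compared between the diets, so every diet difference of the family is given below as a description and without a test.

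The study withdrew vitamin B3 from the diet of C57BL/6JRcc males. For the 12 No NR mice the semi-synthetic feed held 0 mg nicotinamide riboside per kg, and for the 12 Ctrl NR mice it held 30 mg nicotinamide riboside per kg. Nicotinamide riboside is a form of vitamin B3 from which cells make NAD. Both diets gave 40% of their energy as fat and held 0.115% L-tryptophan, an amino acid from which NAD can also be made, described by the submitters as low but sufficient. All mice first ate the Ctrl NR diet for 2 weeks, starting at 8 or 9 weeks of age, then their own diet for 18 weeks, and were 28 or 29 weeks old at the end. They were given 0.8 g of feed at the start of the dark phase, refed 1.8 g for 4 hours at the start of the light phase, and killed. Each array compared the RNA of 1 mouse, labelled with Cy5, with a common pool labelled with Cy3. That pool held the RNA of these mice and of mice on other diets, 4 females among them, so a log2 Cy5/Cy3 ratio of 0 means the level of a mixed pool and not of Ctrl NR mice.

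ANP32 proteins carry leucine-rich repeats at one end and a long tail of acidic residues at the other. ANP32A inhibits the phosphatase PP2A, takes part with SET in shielding histone tails from acetylation, links the RNA-binding protein HuR to nuclear export through CRM1 together with ANP32B, and promotes caspase activation at the apoptosome. ANP32B is a histone chaperone, and ANP32E removes the histone variant H2A.Z from chromatin as part of the p400/TIP60 complex.

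All 6 probes were well above background in Cy5 on all 24 arrays. On a single array 34.55% to 50.66% of non-control spots were so, and the share of probes that were so on all 24 is not given here. No spot of theirs was flagged as an outlier or as saturated in either dye. After the filter on dim probes, 24769 probes were compared. The tissue label held against its markers: all 20 adipocyte markers passed the filter, with Fabp4, a fatty acid carrier of adipocytes, the brightest. Both diets were present on every one of the 5 slides, and a slide was scanned as 1 unit, so that slide and scan form 1 batch. No probe passed an adjusted p of 0.05 between the diets in limma (0 of 24769, 0%), while 3479 probes (14%) passed an unadjusted p of 0.05, with 1642 (6.63%) above and 1837 (7.42%) below the Ctrl NR level. The adjusted count was 0 to 318 under other settings. Nothing in the labels shows mice that shared a litter or cage, and each mouse is 1 sample.

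The first probe of Anp32a (A_55_P2162160) was the brighter of the pair, and the numbers 1 and 2 order the probes of each gene in that way and are used only as names. Its raw Cy5 signal ran from 410 over a median of 1132.5 to 2770.5 scanner units in No NR mice, against 1309.5, 2017 and 3532 units in Ctrl NR mice. On the same spots the raw Cy3 signal of the common pool ran from 2502 over 3099.8 to 4088.5 units on No NR arrays, against 3027, 3547.5 and 4189.5 units on Ctrl NR arrays. The pool signals of the 2 diets overlapped over most of their range. Raw signals are not adjusted for the brightness of an array.

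**Figure D1:**
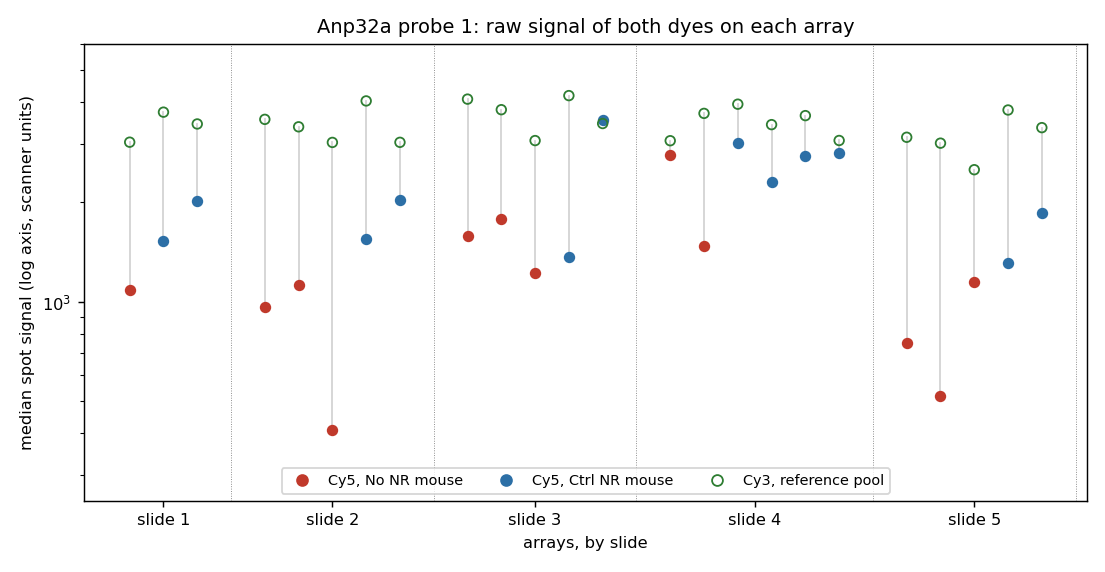
Raw median spot signal of the first Anp32a probe in scanner units on a log axis, for each of the 24 arrays grouped by slide; filled points are the Cy5 signal of a No NR or Ctrl NR mouse, and open points the Cy3 signal of the common pool on the same spot. The pool stays between 2502 and 4189.5 units, while the Cy5 signals span 410 to 2770.5 units in No NR mice and 1309.5 to 3532 units in Ctrl NR mice.

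After normalization the log2 Cy5/Cy3 ratio of this probe ran from -1.48 over a median of -0.43 to 0.14 in No NR mice, against -0.069, 0.42 and 0.97 in Ctrl NR mice. The ratio was above 0 in 1 No NR mouse and in 10 Ctrl NR mice. 10 of the 12 No NR mice lay below every Ctrl NR mouse, and 9 of the 12 Ctrl NR mice lay above every No NR mouse, so the groups overlapped. Over the whole array no probe had groups without overlap (0 of 24769, 0%). The lowest ratios belonged to No NR mice 94 (-1.48) and 114 (-1.42), on different slides, and No NR mouse 118 was the highest of its diet (0.14).

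The mean ratio was -0.54 ± 0.53 in No NR mice and 0.40 ± 0.30 in Ctrl NR mice (SD, n = 12 each). The difference was -0.94 on the log2 scale (SE 0.163, 95% confidence interval -1.27 to -0.61), or 0.521 times the Ctrl NR level. The interval takes no account of the choice of this probe by its p over the same mice, which tends to enlarge a difference. In size the difference was the 12th largest of the 24769 probes, and 157 probes (0.634%) differed by more than 0.5. The probe also varied much between mice of the same diet: its within-diet SD was 0.43, against a median of 0.199 over all probes, and 5.06% of probes had a larger one. Read from Cy5 alone, quantile normalized, it averaged 10.11 ± 0.57 in No NR mice and 11.09 ± 0.34 in Ctrl NR mice (log2 signal, SD, n = 12 each). Read from Cy3 alone it averaged 11.71 ± 0.096 on No NR arrays and 11.78 ± 0.080 on Ctrl NR arrays, a difference of -0.070.

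Within single slides the difference was -0.57 on slide 1, -0.85 on slide 2, -0.62 on slide 3, -0.73 on slide 4 and -1.46 on slide 5, with 1 to 4 mice of a diet per slide. With the slide as a block in the fit it was -0.87 (SE 0.167). No NR mice were below Ctrl NR mice on average on each of the 5 slides. These slides hold the same mice over which the probe was chosen, so this is a description only.

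The second probe of Anp32a (A_51_P399071) is annotated to the same RefSeq transcript as the first, NM_009672, yet it gave no such difference between the diets. It was much the dimmer of the pair: its raw Cy5 signal ran from 134 over 192.5 to 383.5 units in No NR mice, against 85, 199 and 331 units in Ctrl NR mice. Its local Cy5 background was at most 39 units. The part of this dimness in the gap between the 2 probes was not tested. Its log2 ratio ran from -0.28 over -0.072 to 0.22 in No NR mice, against -0.95, -0.090 and 0.35 in Ctrl NR mice. The means were -0.037 ± 0.165 in No NR mice and -0.11 ± 0.31 in Ctrl NR mice (SD, n = 12 each). The difference was 0.077 (SE 0.099, 95% confidence interval -0.12 to 0.28). The value of -0.95 came from Ctrl NR mouse 64, whose raw Cy5 signal was 86 units, and without it the difference was 0.0013 (SE 0.073). Within slides 1 to 5 it was 0.076, -0.016, 0.35, 0.0025 and 0.20.

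**Figure D2:**
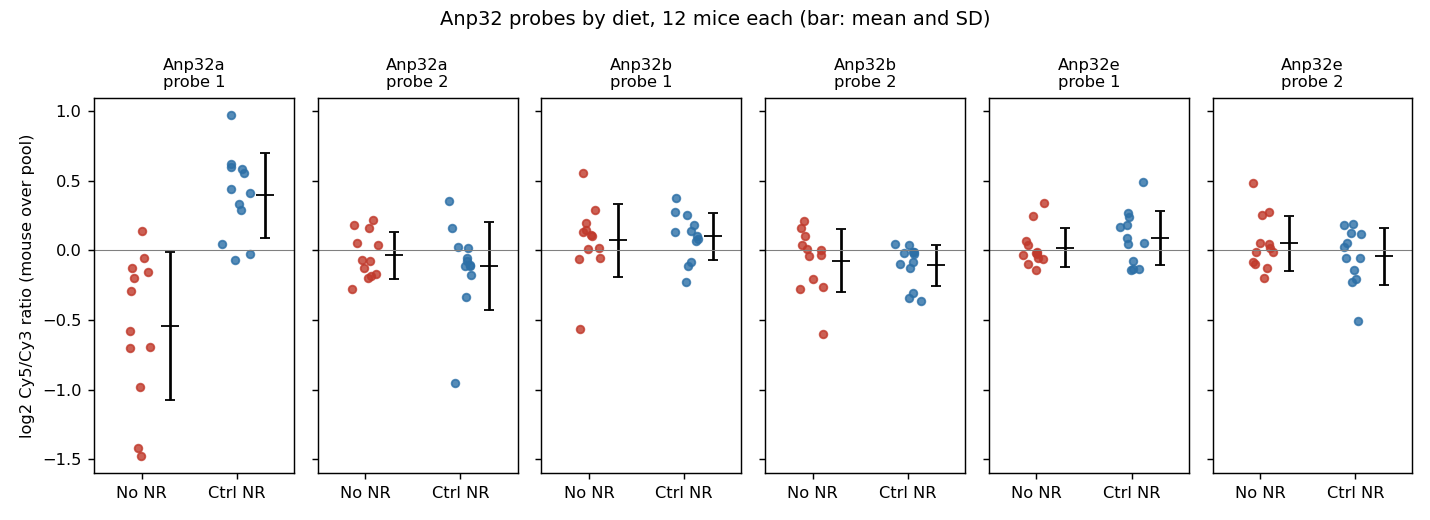
Log2 Cy5/Cy3 ratio of the 6 probes of the family in each mouse (points), with the mean and SD of each diet (bars, n = 12 each). For the first probe of Anp32a the means lie apart, at -0.54 in No NR mice and 0.40 in Ctrl NR mice, though some mice of the diets overlap. The diets overlap widely for the other 5 probes.

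Set against each other mouse by mouse, the ratio of probe 1 minus that of probe 2 ran from -1.47 to -0.0022 in No NR mice, against -0.18 to 1.15 in Ctrl NR mice. It averaged -0.51 ± 0.49 in No NR mice and 0.51 ± 0.40 in Ctrl NR mice (SD, n = 12 each). In all No NR mice the ratio of probe 1 was the lower of the pair. The diet differences of the probes were thus 1.02 apart (-1.02, SE 0.182). Within diets the 2 probes followed each other from mouse to mouse with r = 0.23 (permutation p = 0.208, adjusted p = 0.469 over 27 relations, rho = 0.108 with adjusted p = 0.888, n = 24), and r was 0.34 without the 2 mice farthest from the median. With median centring of each array in place of loess it was 0.76 (adjusted permutation p = 2.08e-05). The probe sequences were not used here, and which transcripts of Anp32a each probe can bind is not known from the files: RefSeq lists 1 curated and 2 predicted transcripts of the gene.

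**Figure D3:**
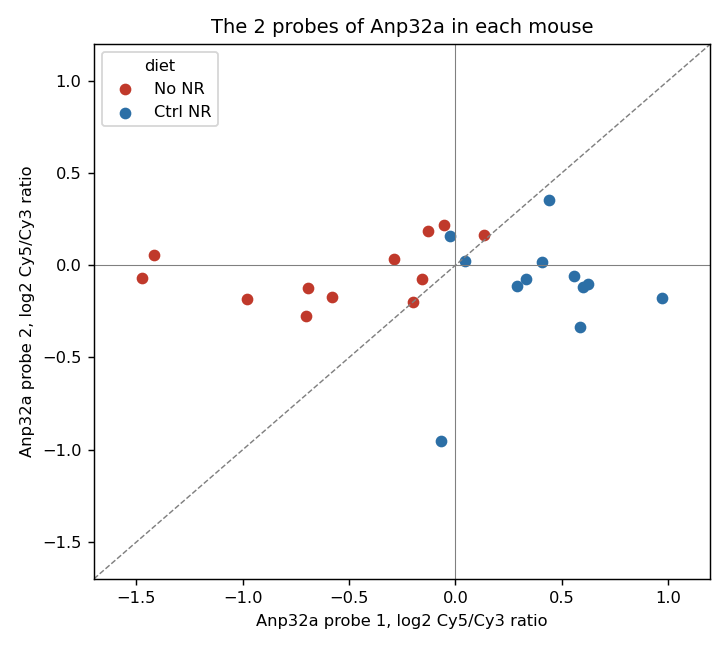
Log2 Cy5/Cy3 ratio of the first Anp32a probe (horizontal) against the second (vertical), 1 point per mouse, with the line of equal ratios dashed. No NR mice spread from -1.48 to 0.14 along the horizontal axis but only from -0.28 to 0.22 along the vertical one, and Ctrl NR mouse 64 stands alone at -0.95.

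The same gap was computed for the other genes as a scale for that of Anp32a. Since the gap of Anp32a holds the difference by which its first probe was chosen, its place among them is a description and supports nothing further. Of the 2663 genes with exactly 2 probes past the filter, 2372 had both probes on the same accession. The diet differences of the 2 probes of a gene were a median of 0.085 apart, with a 95th percentile of 0.277, and 11 genes were more than 0.5 apart. The gap of Anp32a was 1.02, and the next was that of Vps35l, a protein of endosomal sorting, with 0.727. Under the scanner software's own processed signals 3 genes had a wider gap, and 5 did when ratios were also scaled between arrays. For the correlation between the probes of a gene within diets, 42.2% of the genes had a lower r than Anp32a, the median r being 0.311 and the quartiles 0.056 and 0.576.

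**Figure D4:**
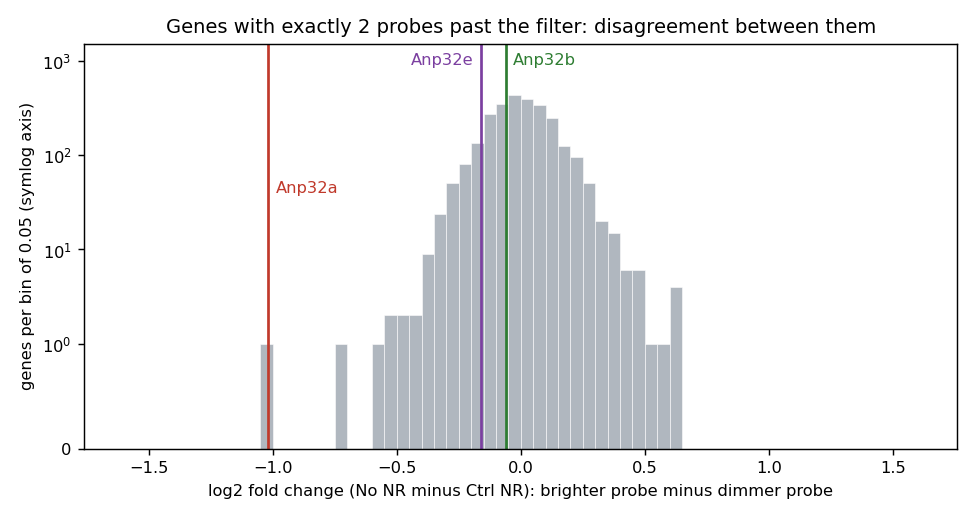
Histogram over the 2663 genes with exactly 2 probes past the filter of the difference between their diet differences (log2, brighter minus dimmer probe), on a symmetric log count axis, with the 3 Anp32 genes as lines. Anp32a stands at -1.02, while Anp32e at -0.16 and Anp32b at -0.060 lie near the centre.

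Anp32b gave near-equal ratios in both diets with both probes. Probe 1 (A_55_P1962811) had raw Cy5 signals from 1190 over 3383.5 to 5657 units in No NR mice, against 1682, 3041.8 and 5447 units in Ctrl NR mice. Its log2 ratio ran from -0.56 over 0.11 to 0.55 in No NR mice, against -0.22, 0.12 and 0.38 in Ctrl NR mice. The means were 0.073 ± 0.261 in No NR mice and 0.099 ± 0.172 in Ctrl NR mice (SD, n = 12 each), a difference of -0.027 (SE 0.088, 95% confidence interval -0.21 to 0.15). Both extremes of this probe were No NR mice, 118 at -0.56 and 90 at 0.55, and the Ctrl NR mice lay between them.

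Probe 2 of Anp32b (A_66_P115053) had raw Cy5 signals from 757.5 over 2017.8 to 3379 units in No NR mice, against 775, 1877 and 3209 units in Ctrl NR mice. Its log2 ratio ran from -0.60 over -0.017 to 0.21 in No NR mice, against -0.36, -0.058 and 0.044 in Ctrl NR mice. No NR mouse 118 was again the lowest and No NR mouse 90 the highest. The difference was 0.034 (SE 0.078, 95% confidence interval -0.13 to 0.19). The diet differences of the 2 probes lay 0.060 apart, a gap that 63.1% of the genes with 2 probes exceeded. On slide 1, where No NR mouse 118 was the only mouse of its diet, the differences were -0.73 for probe 1 and -0.58 for probe 2, while on slides 2 to 5 they lay between -0.019 and 0.18.

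The ratios of Anp32e, the remover of H2A.Z, also overlapped between the diets. Probe 1 (A_52_P125350) had raw Cy5 signals from 127 over 207.5 to 326 units in No NR mice, against 89, 185.5 and 374 units in Ctrl NR mice. Its log2 ratio ran from -0.14 over -0.023 to 0.34 in No NR mice, against -0.14, 0.072 and 0.49 in Ctrl NR mice, a difference of -0.067 (SE 0.071, 95% confidence interval -0.21 to 0.079).

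Probe 2 of Anp32e (A_51_P400581) had raw Cy5 signals from 64 over 130 to 214 units in No NR mice, against 62.5, 112.25 and 168.5 units in Ctrl NR mice, with a local Cy5 background of at most 40 units. Its log2 ratio ran from -0.20 over 0.0050 to 0.49 in No NR mice, against -0.51, -0.015 and 0.19 in Ctrl NR mice, a difference of 0.093 (SE 0.081, 95% confidence interval -0.074 to 0.26). The diets overlapped for both probes. The probes' diet differences lay 0.16 apart, a gap that 21.4% of the genes with 2 probes exceeded, and within diets they did not follow each other (r = -0.15, adjusted permutation p = 0.677, n = 24), with a lower r in 10.6% of such genes. Under median centring in place of loess this r was 0.80 (adjusted permutation p = 5.68e-05).

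From mouse to mouse within diets, 2 of the 15 pairs of Anp32 probes were correlated at an adjusted permutation p under 0.05 (adjusted over 27 relations, the other 12 being those with marker means given further on). The share of all probe pairs of the array that would pass was not computed, so the count says nothing particular to the family. All points share their arrays and pool, and high values were common: 249 genes exceeded 0.7 in size with probe 1 of Anp32b. Of the genes with 2 probes, 79.1% had a lower r between them than Anp32b. Probe 2 of Anp32b and probe 2 of Anp32e went together with r = 0.64 (permutation p = 0.00087, adjusted p = 0.0147) and rho = 0.612 (adjusted p = 0.0175). This relation was 0.66 in No NR mice and 0.65 in Ctrl NR mice (n = 12 each), 0.64 with slide means removed, and 0.53 without No NR mouse 118 and Ctrl NR mouse 64. The 2 probes of Anp32b went together with r = 0.63 (permutation p = 0.00415, adjusted p = 0.0280), but rho was 0.385 (adjusted p = 0.243), and without No NR mice 118 and 90 r was 0.25, so the relation rests on those mice. No pair of an Anp32a probe with a probe of another family gene passed by r. The rank correlation of probe 2 of Anp32a with probe 1 of Anp32b was -0.556 (adjusted permutation p = 0.0382), with r = -0.36 (adjusted p = 0.162).

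The genes most like each probe from mouse to mouse, over the diet-centred ratios of 12381 genes in 24 mice, differed between the 2 probes of Anp32a. These correlations are descriptions, since all points share their arrays and pool. For probe 1 they were Peg13 (r = 0.75), an imprinted non-coding RNA, Tmem97 (-0.75), the sigma-2 receptor, Sh2b1 (0.74), an adaptor of insulin and leptin receptor signalling, Fem1a (0.72) and the complement component C2 (0.72), and 14 genes reached 0.7 in size. For probe 2 they were Cetn3 (0.89), a centrin of the centrosome, Adnp (0.88), a chromatin regulator, Hcn2 (-0.86), a cation channel, Matr3 (0.86), a nuclear matrix protein, and Tmed8 (0.86), and 339 genes reached 0.7. Without the 2 mice farthest from the median of probe 2, Ctrl NR mice 64 and 117, its 5 values were 0.60 to 0.73 in size. Anp32b probe 1 was nearest to Rab35 (0.93), a small GTPase of endosomes, then Comtd1, Rbm12b2, Smcr8 and Exoc5 (0.87 to 0.90). Without the 2 mice farthest from the median of that probe, its 5 values were 0.67 to 0.85. Anp32e probe 1 was nearest to Gorasp1 (0.76), a Golgi stacking protein, then Mapk9, Med29, Rfng and Ppp4r3b (0.72 to 0.76). With the 2 farthest mice left out in the same way, the values were 0.68 to 0.76 in size for Anp32e probe 1 and 0.67 to 0.70 for Anp32a probe 1.

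The makeup of the fat pads differed from mouse to mouse. In bulk tissue, fewer cells of a type and less RNA per cell cannot be told apart. The mean log2 ratio of 23 macrophage markers was -0.13 ± 0.65 in No NR mice (-1.06 to 0.64) and -0.43 ± 0.79 in Ctrl NR mice (-1.66 to 0.68), and 22 of the 23 had the higher mean in No NR mice. The markers were read on the same mice and are not separate observations. Over all genes the median difference was -0.021. The brightest macrophage marker was Lgals3, a galectin of macrophages, and Cd68 was matched to no probe. An unadjusted p under 0.05 in limma was reached by 2 of these genes (8.7%), against 13.1% of the 13014 genes read from their brightest probe, and an adjusted one by 0. The mean of the 20 adipocyte markers was 0.016 ± 0.40 in No NR mice and 0.091 ± 0.40 in Ctrl NR mice (SD, n = 12 each). Over all 24 mice with diet means removed, probe 2 of Anp32b went up with the macrophage mean (r = 0.59, adjusted permutation p = 0.0168, and rho = 0.689, adjusted p = 0.00581) and down with the adipocyte mean (r = -0.63, adjusted p = 0.0147, and rho = -0.724, adjusted p = 0.00513). Without No NR mouse 118 and Ctrl NR mouse 64 these r were 0.70 and -0.72. Probe 1 of Anp32a went the other way by rank, with rho = -0.615 for the macrophage mean (adjusted permutation p = 0.0175) and 0.535 for the adipocyte mean (adjusted p = 0.0439), while its r of -0.50 (adjusted p = 0.0555) and 0.49 (adjusted p = 0.0756) missed the threshold. The other 4 probes passed with neither mean. The No NR mice fell into 2 clusters on the macrophage mean, 4 between -1.06 and -0.90 and 8 between 0.034 and 0.64, so values over all mice rest partly on the step between them. The same 4 mice had the highest adipocyte means of their diet, 0.35 to 0.66 against -0.44 to 0.091 in the 8. The relations of a probe with the 2 means are thus not separate results. How many other probes of the array follow these means was not computed. The relations were also taken within those 8 No NR mice and within the 12 Ctrl NR mice. Probe 1 of Anp32a had r = -0.48 with the macrophage mean in the 8 No NR mice (exact permutation p = 0.231) and r = -0.45 in the Ctrl NR mice (permutation p = 0.139), neither past the threshold after adjustment over 24 relations (adjusted p = 0.555 for both). With the 2 mice of most extreme ratio left out of each set, r was -0.91 in the No NR mice and -0.11 in the Ctrl NR mice. Both values thus depend on the mice left out: without them the No NR relation was stronger and the Ctrl NR relation weaker. Probe 2 of Anp32b had r = 0.64 in the 8 No NR mice and 0.39 in the Ctrl NR mice, also at an adjusted permutation p of 0.555. Within these smaller sets none of the 24 relations of the 6 probes with the 2 means passed by r or by rho, which does not show that there is no relation. With the macrophage mean as a covariate the diet difference of Anp32a probe 1 was -0.85 (SE 0.143), and with the adipocyte mean -0.90 (SE 0.141). The part of cell makeup in the mouse-to-mouse spread was not tested.

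**Figure D5:**
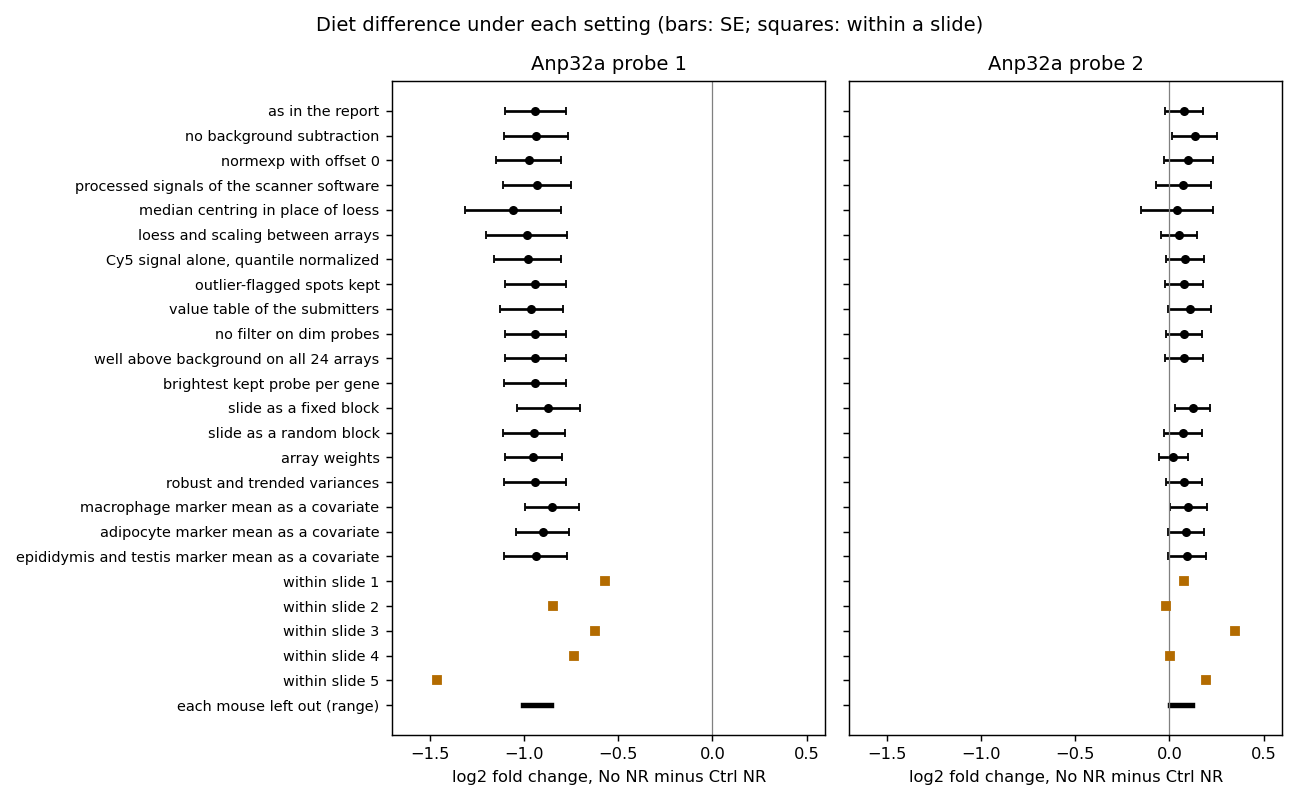
Diet difference (log2, No NR minus Ctrl NR) of the 2 Anp32a probes under each setting of processing or model, with the SE as bars, squares for single slides and a thick line for the range over mice left out one at a time. Probe 1 stays below 0 throughout, between -1.46 and -0.57, and probe 2 stays between -0.016 and 0.35.

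Markers of epididymis and testis stood apart in some mice. Of 8 such genes, Tnp1, Prm1 and Prm2, packaging proteins of sperm chromatin, passed the filter, and Adam7, Defb41, Crisp1, Lcn5 and Spag11b did not. Prm2, the brightest, was well above background on 22 of 24 arrays. Prm1 and Tnp1 were so on 15 arrays each, so their ratios include values near the background. The mean log2 ratio of the 3 genes ran from -2.57 to 1.14 in No NR mice, against -2.15 to 3.05 in Ctrl NR mice, with Ctrl NR mice 108 (3.05) and 77 (1.82) and No NR mouse 110 (1.14) the highest. With this mean as a covariate, a setting added after seeing the data, the diet difference of Anp32a probe 1 was -0.94 (SE 0.168). Endothelial markers had a median difference of -0.15 over 10 genes, 4 of them (40%) lower at an unadjusted p under 0.05 against 8.75% of all genes, and stromal progenitor markers one of 0.22 over 8 genes. The brightest members of these lists, Egfl7 (-0.26) and Dcn (0.42), did not pass an adjusted p in limma (adjusted p = 0.312 for Egfl7 and 0.131 for Dcn). Lymphocyte markers had a median of 0.028 over 7 of 9 genes, with Cd4 the brightest and Cd8a and Cd79a not past the filter. Mesothelial markers, with Msln the brightest, had a median of -0.11, and smooth muscle markers, with Acta2 the brightest, one of -0.046, over 6 genes each.

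Genes that work with ANP32 proteins were read from 6 lists, 1 probe per gene, the brightest. Over the 13014 genes of this kind 0 passed an adjusted p of 0.05 in limma (0%), and 1700 (13.1%) passed an unadjusted one, 561 higher (4.31%) and 1139 lower (8.75%) in No NR mice, with a median difference of -0.021. No list held a gene at an adjusted p under 0.05.

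Of the 12 genes around SET and histone shielding, 4 had the higher and 0 the lower level in No NR mice at an unadjusted p under 0.05 (33.3%), with a median of 0.066. Npm1, a nucleolar histone chaperone, averaged 0.24 ± 0.27 in No NR mice and -0.032 ± 0.337 in Ctrl NR mice (log2 ratio, SD, n = 12 each), a difference of 0.28 (limma adjusted p = 0.286), but its 5 probes ranged from 0.011 to 0.28. Ncl, the nucleolar protein nucleolin, differed by 0.25 (adjusted p = 0.279), whereas its other probe gave -0.12. Set itself, the partner of ANP32A, averaged 0.17 ± 0.24 in No NR mice and 0.15 ± 0.15 in Ctrl NR mice, a difference of 0.028 (SE 0.082). This is the brightest of its 3 probes past the filter, and the others are not given here. Set is named although outside the rule for named genes.

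PP2A is the phosphatase that ANP32A and SET inhibit. 19 of 23 genes of its subunits and modulators passed the filter, all but Ppp2r2b, Ppp2r2c, Ppp2r3a and Cip2a, and 3 were lower and 0 higher in No NR mice at an unadjusted p under 0.05 (15.8%), with a median of 0.013. The regulatory subunit gene Ppp2r5d averaged -0.083 ± 0.231 in No NR mice and 0.26 ± 0.33 in Ctrl NR mice, a difference of -0.34 (limma adjusted p = 0.161), while its other probe gave -0.091. Ppp2r5b, another regulatory subunit, averaged -0.27 ± 0.25 in No NR mice and -0.030 ± 0.249 in Ctrl NR mice, a difference of -0.24 (adjusted p = 0.271).

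In the other lists the shares at an unadjusted p under 0.05 were 7.69% of 13 genes of HuR and CRM1 export (median -0.023), 9.52% of 21 genes of H2A.Z deposition and removal (0.0033), 6.25% of 16 other histone chaperone genes (0.040) and 12.5% of 8 apoptosome and caspase genes (-0.018), all below the 13.1% of all genes. The export factor Nxf1 differed by 0.18 (limma adjusted p = 0.238) and Rcc1, the exchange factor of Ran, by -0.11 (adjusted p = 0.459). Kat5, the TIP60 acetyltransferase of the complex in which ANP32E works, differed by -0.16 (adjusted p = 0.225) with 0.060 at its other probe, and Ruvbl1, an ATPase of that complex, by -0.12 (adjusted p = 0.354). Hjurp, the chaperone of the centromeric histone, differed by 0.15 (adjusted p = 0.317) and Rbbp4 by 0.13 (adjusted p = 0.541). Apaf1, the core of the apoptosome, differed by 0.092 (limma adjusted p = 0.708).

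The neighbours of Anp32a on chromosome 9 in the RefSeq gene order were looked up after the values were seen. Glce, an epimerase of heparan sulfate synthesis, differed by -0.0088 (SE 0.069), Coro2b, an actin-binding protein, by -0.056 (SE 0.087) and Itga11, an integrin subunit, by -0.10 (SE 0.141), while Paqr5 and Spesp1 did not pass the filter.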

How the data were processed

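RNA of 24 mice was read on 24 arrays, 1 mouse per array. The deposited scanner files hold spot intensity in both channels and flags for outliers, saturation and signal well above background, per the file headers. The extraction software was Agilent Feature Extraction, version 10.7.3.1, according to the submitters' processing notes. The authors' deposited value table holds log2 values of 26384 features that followed log2 Cy5 signal (r at least 0.990 per array) rather than log ratios (highest r 0.069), with every column median at 8.04; its normalization is not given in the sources used here, and it served as an alternative.

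Median spot signals were used, since the files hold no mean signals. In limma 3.58.1 under R 4.3.3, background was corrected with normexp (offset 50) and ratios were normalized by loess within arrays, with control spots at weight 0. Control and outlier-flagged spots (0.477% of non-control spots) were left out and spots of a probe averaged. The filter on dim probes asked that Cy5 be flagged well above background on 6 or more of the 12 arrays of a diet. Higher ratios mean more RNA in the mouse than in the pool. No 2 arrays had identical Cy5 signals.

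Probes were named through their accession, without version, in a RefSeq table (assembly GRCm38.p6): 27235 probes matched 1 symbol and 28446 none. The file headers name mm9, so no coordinates are given. Diets were compared by lmFit and eBayes with diet as the only term and Benjamini-Hochberg adjustment over the 24769 kept probes (median SE 0.081), a fit tested on simulated data. The number of arrays limits the precision. Correlations used diet-centred ratios and 100000 two-sided permutations within diets. For 8 mice all orders were taken. The split of No NR mice at the widest gap of their macrophage mean was chosen after seeing the data.

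The family, the gene lists and the tests were chosen with earlier results of these data known. Named genes are all probes of the family, the 2 genes of lowest p of each partner list, the 5 genes nearest by r to each Anp32a probe and to the brightest probe of Anp32b and of Anp32e, and of each marker list the brightest member and those not above background. One gene that this rule names is not reported here. Alternatives covered background correction, normalization, source of signals, filter, slide, array weights, variance model and each mouse left out.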

Additional observations from a re-analysis of the deposited data

How the results depend on the processing

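The 18 other settings of processing and model (17 where both probes are needed) include marker means as covariates, added after seeing the data. Under them the diet difference of Anp32a probe 1 lay between -1.06 and -0.85 and that between its probes between -1.10 and -0.95. The ends of -0.85 and -0.95 came with the macrophage mean as a covariate, and under the planned settings they were -0.87 and -0.97. With mice left out one at a time the diet difference of probe 1 lay between -1.003 and -0.86 and that between the probes between -1.08 and -0.93. The number of probes at an adjusted p under 0.05 in limma was 0 with all mice and 0 to 271 with a mouse left out: 271 without Ctrl NR mouse 117, 257 without Ctrl NR mouse 68, 105 without Ctrl NR mouse 104, 42 without Ctrl NR mouse 77, 6 without Ctrl NR mouse 75, 3 without No NR mouse 78 and 2 without No NR mouse 118. It was 318 with array weights, 3 with robust and trended variances, and, in settings added after seeing the data, 75 with the macrophage mean and 157 with the adipocyte mean as a covariate. The count at an unadjusted p under 0.05 was 2937 to 4379 with a mouse left out, 302 with median centring in place of loess and 5222 with no filter. Single slides moved values furthest: slide 1 gave -0.73 and -0.58 for Anp32b and -0.29 for Anp32e probe 2; slide 3 gave 0.35 for Anp32a probe 2; slide 4 gave -0.29 for Anp32e probe 1; slide 5 gave 0.17 and 0.31 for Anp32e, -1.46 for Anp32a probe 1 and -1.66 between the Anp32a probes. Under median centring all 15 pairs of Anp32 probes passed an adjusted permutation p of 0.05, the Anp32a pair with r = 0.76 and the Anp32e pair with r = 0.80, opposite in sign to the -0.15 under loess. The cause was not tested. No paired analysis was possible because the diets share no animal number. Raw Cy5 signals of Anp32e probe 2 came down to 62.5 units, over a local background of up to 40 units.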
